A study of Homo sapiens with 2 samples.

Results

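The LRRC8 genes encode the subunits of the volume-regulated anion channel, and all 5 of them, LRRC8A, LRRC8B, LRRC8C, LRRC8D and LRRC8E, were taken by their symbol out of 23352 genes in the tables. The family was picked from earlier results of these same data, by the difference of its members between the libraries, so every value here is a description and none was tested. A673, an established human Ewing sarcoma cell line driven by the EWS/FLI1 fusion protein, carried either a lentiviral short hairpin RNA against the transcription factor RUNX3, named 813, or a non-target hairpin, named NT. Both groups went through the same transduction with polybrene (6 µg/mL) and the same selection with puromycin (0.4 µg/mL for 6 days), and each was sequenced as 1 poly(A) library of a selected population of cells. With 1 library per group there is no spread between cultures to compare a difference with. Titles and hairpin characteristics contradict each other for both libraries; the libraries are called here by title, and reading the characteristic instead would turn every direction around.

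When a cell swells, this channel opens and lets chloride and small organic solutes leave, and water follows until the cell is back to its volume. LRRC8A is the subunit that every working channel needs, and it assembles with LRRC8B, LRRC8C, LRRC8D or LRRC8E into a ring in which the partner sets what can pass. Channels with LRRC8D pass taurine and other uncharged solutes well and take up the drugs cisplatin and blasticidin S, while channels with LRRC8C or LRRC8E are known to carry the cyclic dinucleotide cGAMP between cells.

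The total depth was 23342660 read pairs in the 813-titled library and 24326135 in the NT-titled library. The targeted gene RUNX3 had 387 pairs in the 813-titled library and 1391 in the NT-titled library, which goes with the titles. All 8 Ewing sarcoma markers examined were measured at 1 CPM (read pairs in counts per 1e6 of the TMM-scaled library total) or more in at least 1 library. CD99 was at 4026 and 3808 CPM, but 2 of the 8 were lower by more than 2-fold in the 813-titled library with TMM scaling, NKX2-2 (log2 fold -1.43) and NR0B1 (-1.11). STEAP1 was also lower (-0.83), while FLI1 (0.61), CCND1 (0.62), LIPI (0.22) and PRKCB (0.15) were higher. Of markers of other cell types, the leukocyte genes PTPRC and CD3E, the epithelial genes EPCAM, CDH1 and KRT19 and the endothelial genes CDH5 and VWF were under 1 CPM in both libraries. Others of these lists were measured. The keratin KRT18 was at 625 and 563 CPM and KRT8 at 48.98 and 71.7 CPM. The endothelial genes were low, with PECAM1 at 1.14 and 0.775 CPM, while KDR had 52 and 5 pairs (log2 fold 3.18). Among fibroblast genes PDGFRB was at 384 and 207 CPM, COL1A1 at 163 and 202 CPM and DCN at 5.07 and 6.29 CPM, so they did not share a direction. The leukocyte-associated gene LCP1 was at 30.8 and 13.6 CPM. The part of other cell types in the LRRC8 values was not tested.

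LRRC8B and LRRC8C were higher and LRRC8E was lower in the 813-titled library, while LRRC8A and LRRC8D were higher by less than 2-fold. A gene is called here when it differed 2-fold or more and the exact 95% binomial interval of its ratio, which covers counting error only, lay wholly beyond 1.5-fold. By this rule 2 of the 5 members were higher and 1 was lower, against 8.13% of all 12254 measured genes higher and 3.48% lower. Since the family was picked on this contrast, nothing is read from that comparison. Of all calls, 70.0% were higher with the scaling used here (996 higher, 427 lower) and 81.5% with plain library totals (1330 higher, 302 lower). Plain totals moved the median log2 fold of all measured genes by 0.14 upward, and directions are given relative to TMM scaling.

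LRRC8A, the subunit that all channels share, lies at chr9:131644391-131680317 in hg19. It had 4470 pairs in the 813-titled library and 3282 in the NT-titled library, or 183 and 141 CPM. The log2 fold, always given here as 813 over NT, was 0.37 (interval 0.30 to 0.44), a level 1.29-fold higher. In bulk RNA such as this, fewer cells expressing a gene and less of its RNA per cell cannot be told apart. It was the most abundant member by a wide margin in both libraries, at 30.9 and 21.8 RPKM, the authors' reads scaled to gene length and library total. Those levels ranked 2162nd and 2818th among the measured genes. The size of its difference depended on the scaling, from 0.35 with DESeq2 size factors to 0.51 with plain totals, and stayed under 2-fold throughout.

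LRRC8C, a partner subunit, lies at chr1:90098644-90185094. It had 371 pairs in the 813-titled library and 118 in the NT-titled library, or 15.2 and 5.08 CPM. The 813-titled library was 2.98-fold higher (2.42 to 3.70), with a log2 fold of 1.57. In RPKM its level was 1.69 and 0.518, which placed it in the lower part of the measured genes.

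LRRC8B, at chr1:89990397-90063420, is a further partner subunit. It was the least abundant member, with 95 pairs in the 813-titled library and 25 in the NT-titled library, or 3.88 and 1.08 CPM. The ratio was 3.61 (2.30 to 5.85) and the log2 fold 1.83. In the NT-titled library it stood just above the limit of 1 CPM, at 0.0982 RPKM, above only 1.66% of the measured genes.

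LRRC8D, at chr1:90286573-90401989, is the partner linked to uptake of platinum drugs. It had 594 pairs in the 813-titled library and 355 in the NT-titled library, or 24.3 and 15.3 CPM. The log2 fold was 0.67 (0.47 to 0.86), a ratio of 1.59, short of the 2-fold rule. It was the second most abundant member in both libraries.

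LRRC8E, at chr19:7953390-7966908, was the one member with the lower value in the 813-titled library. It had 72 pairs there and 149 in the NT-titled library, or 2.94 and 6.42 CPM. The 813-titled library was 2.18-fold lower, with a log2 fold of -1.12 (-1.55 to -0.71). This call rests on the scaling, since the log2 fold was -0.98 with plain totals, -0.99 with the most abundant genes left out of the totals and -0.996 with the authors' RPKM, each short of 2-fold.

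**Figure D1:**
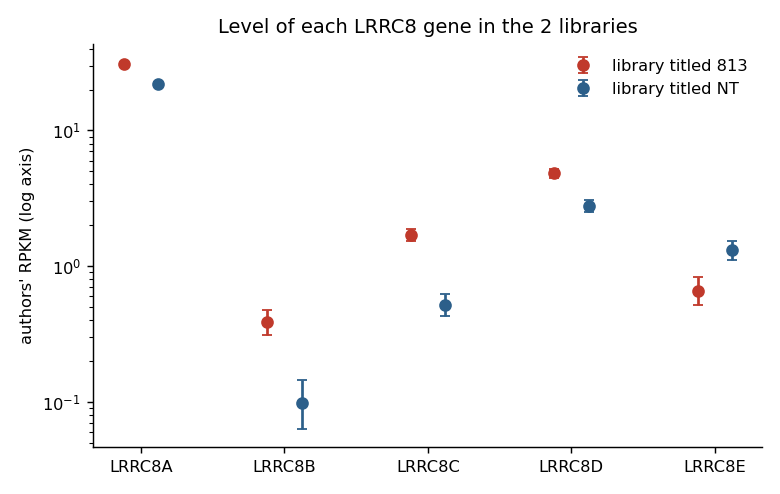
Level of each LRRC8 gene in the authors' RPKM on a log axis, 1 point per library, with bars for the exact 95% Poisson interval of the pair count. LRRC8A stands highest in both libraries at 30.9 and 21.8, and LRRC8E alone has its higher point in the NT-titled library (1.31 against 0.657).

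**Figure D2:**
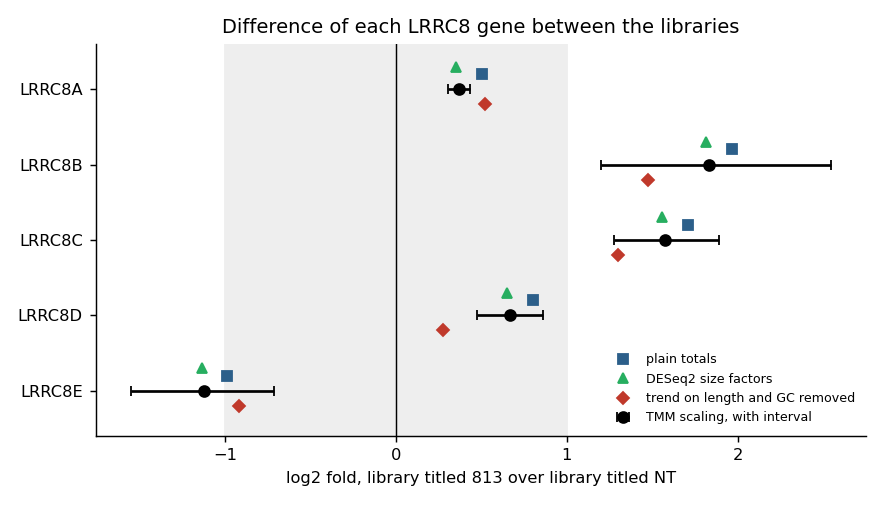
Log2 fold of each member with its counting interval (black) beside the values with 3 other treatments of the counts; the grey band spans less than 2-fold. LRRC8B and LRRC8C lie to the right of the band under each, and LRRC8E lies outside it on the left with TMM and DESeq2 scaling only.

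The members differed from each other in how far they differed between the libraries, and these contrasts do not depend on library scaling. The ratio of the fold of 1 member to that of another, always the larger over the smaller, was computed for all 10 pairs of members. For 9 of them its 95% counting interval lay wholly above 1. The family was picked by such differences and pairs of other genes were not compared, so nothing is read from that count. The exception was LRRC8B against LRRC8C, with a ratio of 1.21 (0.730 to 2.06), so their folds could not be told apart at this depth. The fold of LRRC8C was 6.49 times that of LRRC8E (4.52 to 9.37), and that of LRRC8B 7.81 times (4.54 to 13.8). LRRC8D exceeded LRRC8A by 1.23 times (1.07 to 1.42), the narrowest of the contrasts whose interval lay above 1. That contrast turned around with the trend on length and GC content removed: the log2 fold was then 0.27 (0.08 to 0.47) for LRRC8D and 0.52 (0.45 to 0.59) for LRRC8A.

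Per length, the order of the partners was not the same in both libraries. In the NT-titled library it ran LRRC8A, LRRC8D, LRRC8E, LRRC8C and LRRC8B, and LRRC8E stood 2.53-fold (1.97 to 3.24) above LRRC8C. In the 813-titled library it ran LRRC8A, LRRC8D, LRRC8C, LRRC8E and LRRC8B, and LRRC8C stood 2.58-fold (1.996 to 3.36) above LRRC8E. No 2 neighbours in either order lay within counting error of each other; the closest were LRRC8E and LRRC8B in the 813-titled library, with a ratio of 1.70 (1.23 to 2.33).

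LRRC8A made up most of the family's summed RPKM, with 80.3% in the 813-titled library and 82.3% in the NT-titled library. LRRC8D followed with 12.5% and 10.5%. The share of LRRC8C was 4.41% and 1.95%, that of LRRC8E 1.71% and 4.94%, and that of LRRC8B 1.01% and 0.370%. The sum itself was 38.4 and 26.5 RPKM, a ratio of 1.45 that carries the authors' library totals. Among the partners alone, LRRC8D held 63.8% and 59.0%, LRRC8C 22.4% and 11.03%, and LRRC8E 8.70% and 27.9%. These are shares of RNA, and how many subunits of each kind reach the membrane was not measured.

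**Figure D3:**
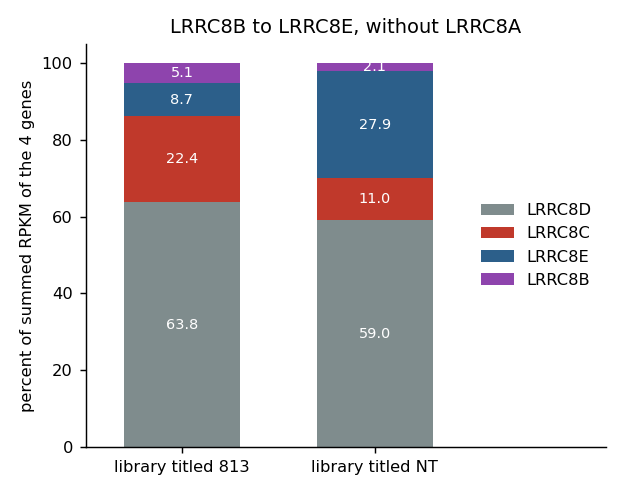
Share of each partner subunit in the summed RPKM of LRRC8B to LRRC8E, 1 stacked bar per library, in percent. LRRC8D is the largest part in both, and LRRC8C (22.4% and 11.03%) and LRRC8E (8.70% and 27.9%) change places between the 813-titled library and the NT-titled library.

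The 24 exon records of the family show whether the gene values came from the whole transcript. None of them overlapped an exon record of another gene. In each member most of the protein is encoded by 1 long exon. By GENCODE release 29, matched on exon length and order, the 2165-base record of LRRC8A holds 2157 coding bases and a record of the same length in LRRC8B holds 2139. In LRRC8C, LRRC8D and LRRC8E the last record holds 2271, 2574 and 2250 coding bases.

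For LRRC8A, the long coding exon (chr9:131669436-131671600) had 4878 reads in the 813-titled library and 3702 in the NT-titled library, a log2 fold of 0.32. Its last exon had 3717 and 2600 reads, a log2 fold of 0.44. The ratio of each LRRC8A record to the rest of the gene lay between 0.895 and 1.08, and each counting interval included 1. The gene has a pair of annotated first exons, and both had reads, 94 and 64 in the upstream one and 87 and 71 in the downstream one.

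For LRRC8C, all 3 records were higher in the 813-titled library. The first had 30 and 13 reads, the second 59 and 19, and the long last record (chr1:90178268-90185094) 665 and 209. For LRRC8B, the coding exon (chr1:90048184-90050348) had 89 reads in the 813-titled library and 22 in the NT-titled library, and the last exon 89 and 25. Its first 4 records, over chr1:89990397-90024595, had 1 read in each library between them. Record 5 (chr1:90033806-90033866) had 4 reads and 1 read, and record 6 (chr1:90033998-90034052) 5 reads and 1 read. The annotated upstream start of LRRC8B was thus hardly covered in either library.

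For LRRC8D, the last record (chr1:90398626-90401989) had 1084 and 636 reads. Of its alternative first exons, the upstream one had 26 and 25 reads and the downstream one 12 and 8. The ratio of the upstream exon to the rest of LRRC8D was 0.631 (0.262 to 1.53), which is not a detectable difference at this depth. For LRRC8E, the last record (chr19:7963546-7966908) had 135 reads in the 813-titled library and 274 in the NT-titled library, the second 6 and 14, and the first 0 and 7. In none of the records with at least 20 reads did the interval of the ratio to the rest of the gene leave 1 out.

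**Figure D4:**
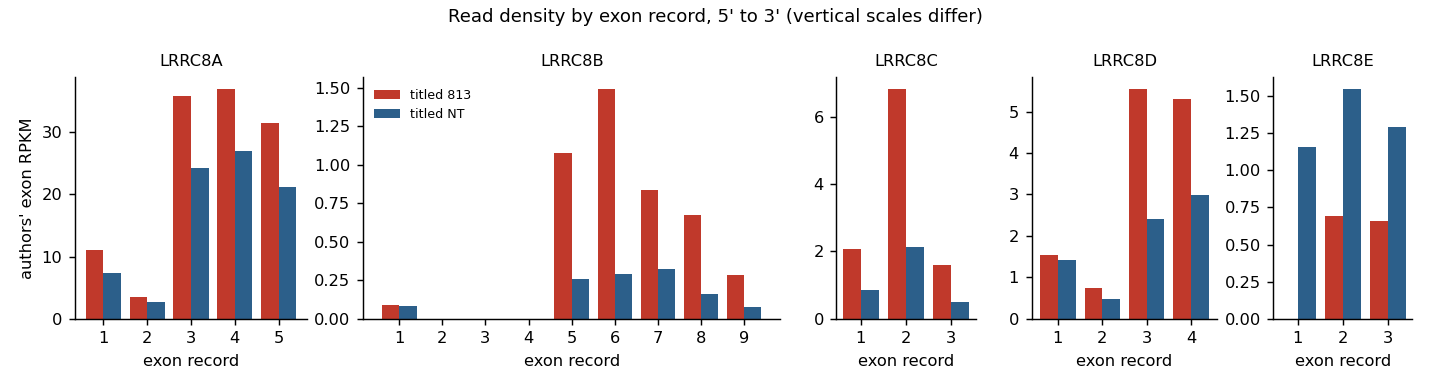
Authors' RPKM of each exon record, numbered along the transcript, as a pair of bars per record (red for the 813-titled library, blue for the NT-titled library) in 1 panel per gene with its own vertical scale. The libraries keep the same order along LRRC8A, LRRC8C and LRRC8D, the order is opposite in LRRC8E, and LRRC8B shows almost no reads before record 5.

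The promoters of the members that passed the rule are shown because one was lower and the others higher. They are RefSeq sequences on GRCh38.p14, plus strand, from 250 bases before to 50 bases after the annotated start. Capitals mark matches on either strand to any of TGTGGT (a form of the core that RUNX factors bind), TGANTCA (the AP-1 site), TGACGTCA (the cyclic AMP response element) and GGAAGGAA (a tandem ETS core). No motif here is contained in another.
LRRC8B, chr1:89524579-89524878: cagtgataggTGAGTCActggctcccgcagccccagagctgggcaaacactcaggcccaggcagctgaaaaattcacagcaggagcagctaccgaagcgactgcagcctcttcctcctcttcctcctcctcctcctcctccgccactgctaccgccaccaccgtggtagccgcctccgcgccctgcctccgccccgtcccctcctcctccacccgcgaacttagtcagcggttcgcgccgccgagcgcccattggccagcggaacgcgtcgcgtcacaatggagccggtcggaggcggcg
LRRC8C, chr1:89632870-89633169: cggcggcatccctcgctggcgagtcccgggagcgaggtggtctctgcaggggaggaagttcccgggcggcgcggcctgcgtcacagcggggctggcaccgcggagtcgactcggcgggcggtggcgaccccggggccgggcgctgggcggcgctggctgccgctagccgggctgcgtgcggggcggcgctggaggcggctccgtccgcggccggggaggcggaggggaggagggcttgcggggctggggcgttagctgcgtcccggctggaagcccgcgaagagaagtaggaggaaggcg
LRRC8E, chr19:7888260-7888559: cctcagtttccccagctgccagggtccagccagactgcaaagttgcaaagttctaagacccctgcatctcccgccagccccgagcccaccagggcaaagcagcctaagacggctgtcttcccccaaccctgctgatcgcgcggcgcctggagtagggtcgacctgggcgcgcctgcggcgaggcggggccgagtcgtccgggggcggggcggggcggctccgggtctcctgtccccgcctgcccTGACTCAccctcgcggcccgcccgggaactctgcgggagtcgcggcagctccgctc

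TGTGGT was in none of the 7 annotated LRRC8 promoters and in 13.1% of all 35116 promoters of this length. Other forms of the RUNX core were not searched, so their absence is not shown. TGANTCA was in the promoter of LRRC8B, starting 240 bases before the start site, and in that of LRRC8E, starting 6 bases before it. It was in 7.71% of all promoters, and here it was found in a gene that was higher and in one that was lower. The LRRC8B match belongs to the upstream start, whose exon had almost no reads. Of the promoters not printed, the upstream one of LRRC8A held TGACGTCA (in 1.85% of all promoters) and the downstream one of LRRC8D held GGAAGGAA (in 3.67%). The LRRC8C promoter matched none of the motifs and held 43 CG dinucleotides, more than 95.02% of all promoters. These are letter matches only and say nothing of whether a factor was bound.

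The members also differ in base composition. The coding sequences of LRRC8A and LRRC8E are 59.4% and 60.2% G and C, and those of LRRC8B, LRRC8C and LRRC8D 44.4%, 43.6% and 42.3%. The members with more G and C had the smallest positive and the negative log2 fold. Among LRRC8B, LRRC8C and LRRC8D the log2 fold fell as G and C of the coding sequence fell (1.83, 1.57 and 0.67). Over the whole transcript their G and C content was 39.0%, 38.1% and 42.9%. By that measure LRRC8D had the most G and C of them and the lowest log2 fold. LRRC8B and LRRC8C are also the longest members, at 8061 and 7207 bases. Over the measured genes a smooth trend on gene length and whole-transcript GC content accounted for 15.5% of the variance in log2 fold. With it removed, the log2 fold was 1.48 for LRRC8B, 1.30 for LRRC8C, 0.27 for LRRC8D, 0.52 for LRRC8A and -0.92 for LRRC8E. LRRC8B and LRRC8C kept their calls and LRRC8E lost its call. The part of base composition or length in these differences was not tested. The coding sequences of the members were 59.4% to 66.7% identical in pairs, and no stretch of 50 bases occurred in the transcripts of more than 1 member. Of such stretches, 8.56% of those of LRRC8D, 3.86% of those of LRRC8C and 0.388% of those of LRRC8B also occurred in other genes. None of those of LRRC8A or LRRC8E did.

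LRRC8B, LRRC8C and LRRC8D lie next to each other on chromosome 1, in that order, while LRRC8A and LRRC8E lie alone on chromosomes 9 and 19. FLJ27354, whose record ends 190 bases before LRRC8C starts, had 25 pairs in the 813-titled library and 5 in the NT-titled library (log2 fold 2.14, 0.84 to 3.99). It counted as measured only through the 813-titled library, at 1.02 CPM against 0.215. It had no GC value, so its call was not put through the removal of the trend on length and GC. The files give no strand, so how its reads and those of LRRC8C were kept apart is not known. On the far side of LRRC8D, the pseudogene GEMIN8P4 (-0.38, -0.84 to 0.07) and the zinc finger gene ZNF326 (0.54, 0.19 to 0.89) did not pass the rule. On the near side of LRRC8B, GBP6 and GBP1P1 were under 1 CPM in both libraries. In this stretch of chromosome 1, LRRC8B, FLJ27354 and LRRC8C passed the rule upward, as did 8.13% of all measured genes. LRRC8D was short of 2-fold. LRRC8B and LRRC8C belong to the family picked on this contrast, so nothing is read from these calls lying together. With GBP6 and GBP1P1 that low, no limit of the higher values can be set on the LRRC8B side.

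Around LRRC8E on chromosome 19, 2 neighbours also passed the rule downward, as did 3.48% of all measured genes. FLJ22184 had 336 and 1071 pairs (log2 fold -1.75, -1.93 to -1.57) and LOC100507588 had 78 and 175 (-1.24, -1.65 to -0.85). Neither had a GC value, so their calls were not put through the removal of the trend on length and GC. MAP2K7, the stress kinase gene directly after LRRC8E, had 1962 and 3394 pairs (-0.87, -0.95 to -0.79). Its log2 fold was -0.55 with that trend removed. LOC388499 had 4 pairs and 0. Next to LRRC8A, the aminotransferase gene CCBL1, which ends 36 bases before it, went the other way from LRRC8A with 663 and 1106 pairs (-0.81, -0.95 to -0.67). Also beside LRRC8A, C9orf114 (-0.36), PHYHD1 (0.25) and the dolichol kinase gene DOLK (0.21) did not pass the rule.

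Other genes that act in cell volume control were described from lists chosen by function, with earlier results of these data known. Related large-pore channels and cyclic dinucleotide genes were added. Of 79 genes, 57 were measured, of which 6 passed the rule upward and 1 downward (10.5% and 1.75%, beside 8.13% and 3.48% of all measured genes). These calls include PANX1 and PANX2 (the 1 downward) from the related channels and MB21D1 from the cyclic dinucleotide genes. The shares are thus not those of volume control genes alone. The median log2 fold of the 57 was 0.17, beside 0.01 over all measured genes and 0.67 over the LRRC8 genes. Since the LRRC8 genes were picked on this contrast and the lists were chosen with results known, nothing is read from these comparisons.

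Among the volume-sensing kinases, WNK4, a kinase upstream of SPAK and OSR1, had 149 and 52 pairs (log2 fold 1.43, 0.98 to 1.93). The most abundant of these kinases, WNK1, was at 7.57 and 4.44 RPKM with a log2 fold of 0.64. None of the 8 measured cation-chloride cotransporters and ion exchangers passed the rule, and SLC4A2, a chloride-bicarbonate exchanger, had 65.5 and 65.6 RPKM. Of 17 measured other chloride and anion channels, 1 passed, the scramblase and channel ANO6 with 678 and 300 pairs (1.10, 0.90 to 1.30), and its log2 fold was 0.62 with the trend on length and GC removed. The most abundant gene of that list, CLIC1, had a log2 fold of -0.36.

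Pannexins are large-pore channels built like the LRRC8 proteins, and they differed in direction. PANX1, which releases ATP, had 428 and 166 pairs (1.29, 1.03 to 1.56), and PANX2 had 235 and 817 (-1.87, -2.09 to -1.66). Of that list CALHM2 had the highest level, 13.5 and 10.3 RPKM, and a log2 fold of 0.26. Among genes for organic osmolytes, SLC5A3, the myo-inositol transporter, had 489 and 206 pairs (1.17, 0.93 to 1.41), and CSAD, a taurine synthesis enzyme, 220 and 100 (1.06, 0.71 to 1.42). SLC5A3 fell short of the rule at 0.82 with the trend removed. ISYNA1, which makes inositol, was the most abundant of them over both libraries, with a log2 fold of -0.45. AKR1B1, which makes sorbitol, had 5251 and 2531 pairs and a log2 fold of 0.98, and is named after its value was seen because it passed the rule with plain totals (1.11).

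Of the 6 cyclic dinucleotide genes, MB21D1, the cGAMP synthase cGAS, was higher with 135 and 56 pairs (1.19, 0.73 to 1.67), and IRF3 had the highest level per length (36.1 and 40.2 RPKM) with a log2 fold of -0.29. MB21D1 had no GC value, so its call was not put through the removal of the trend on length and GC. None of the 2 measured aquaporins passed the rule, and AQP11 had 21 and 29 pairs. Nor did any of the 4 measured potassium and mechanosensitive channels, where PIEZO1 had 11090 and 10482 pairs and a log2 fold of 0.01.

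**Figure D5:**
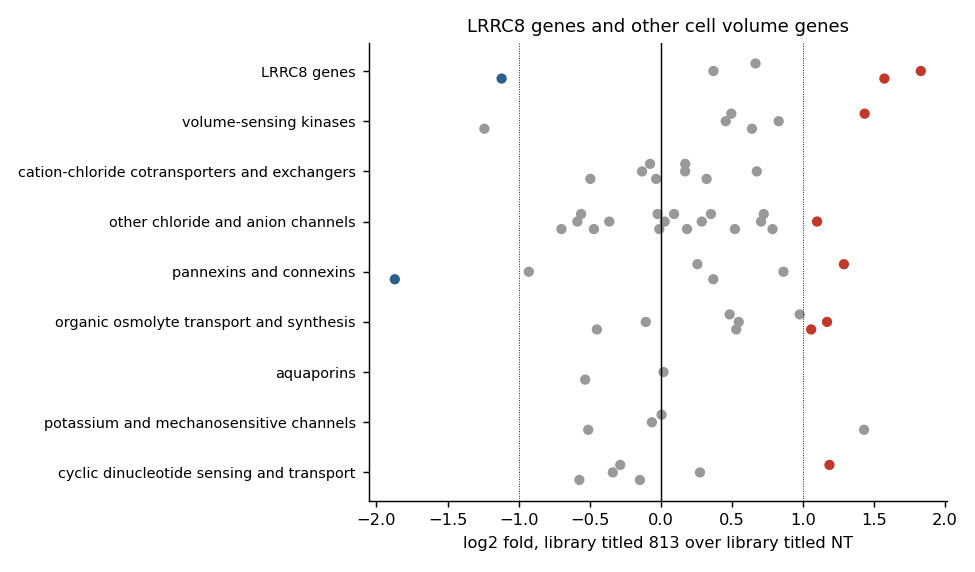
Log2 fold of each measured gene (1 point each), LRRC8 genes in the top row and the cell volume and related lists below. Red points were called higher, blue ones lower and grey ones neither, and dotted lines mark 2-fold. The medians of the other lists run from -0.26 (aquaporins) to 0.57 (volume-sensing kinases), with PANX2 farthest to the left at -1.87.

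Outside the family, the gene nearest to each member in level was found over the 2 libraries as the smallest Euclidean distance in log2(RPKM + 0.1). These were DNAJC9 for LRRC8A (distance 0.030), WDR5B for LRRC8B (0.058), RIN2 for LRRC8C (0.030), MTX2 for LRRC8D (0.035) and LOC100128822 for LRRC8E (0.070). With 2 points per gene such a match is a description of level only.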

How the data were processed

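Poly(A) RNA of A673 cells was sequenced as 1 library per group. The authors deposited raw counts per gene and per exon record and RPKM values for both; CASAVA 1.9, TopHat2 2.0.6, HTSeq and hg19 are named, without roles, per the submitters' processing notes. Not given in the sources used here are the annotation and strand setting. All gene counts are even (0 odd values in either library), so each was read as 2 reads per pair and halved. Repeated rows (46 of 23398) were dropped.

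TMM scaling came from edgeR 4.0.16 (R 4.3.3; factors 1.05 and 0.954). Log2 folds use a prior of 0.5 pairs, with exact 95% conditional binomial (Clopper-Pearson) intervals (scipy 1.17.1) for counting error only. Genes that reached 1 CPM in either library counted as measured. Exon folds and ratios use halved reads. Members and lists were chosen with earlier results of these data known. One cell type marker is not reported here. Named genes were the members, RUNX3, called and most abundant genes of each list, 2 neighbours on each side of a member, and 1 gene nearest in level per member. Alternatives were DESeq2 1.42.0 size factors, plain totals, totals without 23 abundant genes, RPKM, undivided counts, another prior, exon sums, a trend on length and GC content (89.9% of measured genes had a GC value), other rules for calls and other filters.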

Additional observations from a re-analysis of the deposited data

How the results depend on the processing

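Each member kept the direction of its log2 fold under the 8 alternatives run for it. LRRC8A moved outside its counting interval with plain totals (0.51), totals without the most abundant genes (0.50), the authors' RPKM (0.50) and the trend on length and GC content removed (0.52), and LRRC8D with that trend removed (0.27). LRRC8E was the only member called lower, and 0 were called lower with plain totals, with the authors' RPKM, with the trend removed and under a stricter rule (3-fold, interval beyond 2-fold). By that rule 1 member, LRRC8B, was higher with TMM scaling, LRRC8C also met it with plain totals (1.71), totals without the most abundant genes (1.70) and RPKM (1.71), and LRRC8B did not with the trend removed (1.48); with a filter of 5 CPM 1 member, LRRC8C, was higher. For the genes of the cell volume and related lists, a rule of 1.5-fold with the interval beyond no difference gave 14 higher and 5 lower. The stricter rule gave 0 higher. Over all measured genes these rules gave 2428 higher and 1371 lower, and 311 higher and 136 lower. With read density over the longest exon record in place of RPKM, the shares in the 813-titled library were 82.5% for LRRC8A, 0.640% for LRRC8B and 3.57% for LRRC8C, and in the NT-titled library 84.8% for LRRC8A, 1.52% for LRRC8C, 9.38% for LRRC8D and 4.04% for LRRC8E. Beyond what the settings themselves change, the cause was not tested. Depth limits LRRC8B and LRRC8E most, with 25 and 72 pairs in their lower library, and 1 library per group gives no spread between cultures.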
